A study of Mus musculus with 28 samples.

Results

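The 9 genes described here encode enzymes that make or inactivate eicosanoids, the lipid signals formed from arachidonic acid. They were taken by gene name from a table of organoids treated with bone morphogenetic proteins (BMPs), which lists 29413 genes, and from a table of organoids treated with Tgfb, which lists 55416. All 9 were found in both tables. They are Alox12 (ENSMUSG00000000320), Alox5 (ENSMUSG00000025701), Alox5ap (ENSMUSG00000060063), Ptgs1 (ENSMUSG00000047250), Ptgs2 (ENSMUSG00000032487), Ptges (ENSMUSG00000050737), Hpgds (ENSMUSG00000029919), Ltc4s (ENSMUSG00000020377) and Hpgd (ENSMUSG00000031613).

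Messenger RNA was sequenced from small-intestinal organoids of the mouse, epithelial cultures grown from crypts in a gel. All 26 organoid samples were wild type (C57BL/6) and were started in ENR medium. Recombinant Bmp2 went to 4 samples of the BMP table and Bmp3, Bmp4, Bmp5 and Bmp7 to 3 samples apiece, beside 4 untreated controls, every ligand at 500 ng/ml for 24 h. The Tgfb table held 3 untreated controls and 3 samples given recombinant Tgfb at 500 ng/ml for 24 h. Mesenchymal cells from the duodenum of a PdgfraH2BeGFP mouse, which carries a nuclear green reporter at Pdgfra, gave 1 freshly isolated sample and 1 sample that had been immortalised with the HPV16 E6 gene by retrovirus, selected with puromycin and sorted for high reporter signal. Each ligand was used at a single dose and a single time.

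Phospholipases A2 release arachidonic acid from membranes, and it is then oxidised along separate branches. The cyclooxygenases Ptgs1 and Ptgs2 start the prostaglandin branch, in which Ptges makes prostaglandin E2 and Hpgds makes prostaglandin D2, while lipoxygenases make hydroxy fatty acids and, with the help of Alox5ap and Ltc4s, leukotrienes. Hpgd inactivates prostaglandins. In the intestine, leukotriene and prostaglandin D2 enzymes are known from tuft cells, a rare chemosensory epithelial type, and Ptgs2 is best known from stromal and inflamed tissue.

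The stretch of 250 bases before the annotated transcription start was read from RefSeq (build GRCm38.p6) for 8 of the 9 genes. The windows of 4 are printed, since the results turn on Alox12, Ptgs2 and Hpgd, and Ptgs1 is the cyclooxygenase that did not pass the test. Capitals mark matches on either strand to the Smad-binding letters CAGAC, to the GC-rich Smad letters GGCGCC, or to the AP-1 letters TGANTCA. The windows are chr11:70255371-70255620 (minus strand) for Alox12, chr1:150099781-150100030 (plus strand) for Ptgs2, chr8:56294302-56294551 (plus strand) for Hpgd and chr2:36230176-36230425 (plus strand) for Ptgs1, all 5′ to 3′.
Alox12: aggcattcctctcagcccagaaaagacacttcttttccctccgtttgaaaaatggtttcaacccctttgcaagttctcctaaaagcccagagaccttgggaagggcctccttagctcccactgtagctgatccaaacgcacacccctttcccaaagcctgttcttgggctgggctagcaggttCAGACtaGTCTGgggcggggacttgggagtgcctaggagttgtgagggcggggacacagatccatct
Ptgs2: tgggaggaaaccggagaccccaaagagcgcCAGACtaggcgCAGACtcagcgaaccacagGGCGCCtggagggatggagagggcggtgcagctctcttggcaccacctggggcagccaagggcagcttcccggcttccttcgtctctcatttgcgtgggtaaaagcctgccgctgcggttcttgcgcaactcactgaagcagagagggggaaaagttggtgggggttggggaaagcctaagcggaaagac
Hpgd: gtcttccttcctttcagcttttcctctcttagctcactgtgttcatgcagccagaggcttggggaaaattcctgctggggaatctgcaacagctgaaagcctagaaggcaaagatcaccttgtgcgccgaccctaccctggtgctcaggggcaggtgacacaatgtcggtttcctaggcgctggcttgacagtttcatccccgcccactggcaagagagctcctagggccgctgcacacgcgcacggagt
Ptgs1: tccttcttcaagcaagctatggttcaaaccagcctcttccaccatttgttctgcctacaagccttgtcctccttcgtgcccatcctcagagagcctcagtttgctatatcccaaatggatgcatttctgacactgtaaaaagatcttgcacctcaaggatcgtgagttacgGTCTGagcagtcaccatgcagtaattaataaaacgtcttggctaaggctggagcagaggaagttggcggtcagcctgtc
Alox12 held 2 matches to CAGAC, Ptgs2 held 2 to CAGAC and 1 to GGCGCC, Ptgs1 held 1 to CAGAC, and Hpgd held 0 to any of the 3 motifs. No match shown overlaps another. Of 32851 annotated mouse promoter windows of this length, 42.2% held CAGAC, 9.59% held GGCGCC and 6.75% held TGANTCA, so the matches in these windows are a description of their letters and not sites of binding.

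Levels of different genes can be compared only per transcript length, in TPM (transcript counts scaled for length and to a fixed total), which the Tgfb table gives. In its untreated organoids Hpgd was by far the most abundant of the 9, at 18.7 ± 1.51 TPM (SD, n = 3). Alox5ap (1.59 ± 0.861) and Ltc4s (1.43 ± 0.664) followed and did not differ beyond their spread. Hpgds (0.572 ± 0.283) and Ptgs1 (0.456 ± 0.0834) came next and also lay within each other's spread. Alox5 stood at 0.183 ± 0.114, Ptgs2 at 0.0797 ± 0.0524 and Ptges at 0.0474 ± 0.00869. Alox12 was listed at 0 in 2 of the 3 untreated samples and at 0.0176 TPM in replicate III. Of the 9, the untreated organoids of the Tgfb table therefore carried mainly the transcript of the enzyme that inactivates prostaglandins, and very little of either cyclooxygenase. The untreated organoids of the BMP table, in normalized counts not scaled for length, averaged 37.9 for Ptgs2, 22.7 for Ptgs1 and 476.5 for Hpgd. As these counts are not scaled for length, they do not rank the cyclooxygenases against each other there.

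In the BMP table the values are normalized counts, that is reads divided by 1 factor per sample, and 1 read was worth 0.83 to 1.28 of them. Genes with a mean of at least 10 normalized counts over the 20 samples were tested with limma on log2(value + 1), with Benjamini-Hochberg adjustment over 14746 genes and a threshold of 0.05. Of the 9 genes 7 passed this filter and Alox5 and Ltc4s did not; Alox12 and Ptges, whose control means of 1.07 and 8.54 lie under the minimum, passed it only through treated groups, so they are left out of the counts here and described by their values. Of the 5 genes whose controls alone reach the minimum (Alox5ap, Ptgs1, Ptgs2, Hpgds and Hpgd), 3 rose and 0 fell with BMP2, where 36.8% of all genes tested rose and 38.4% fell. With BMP4 2 of the 5 rose and 0 fell (33.7% and 31.4% of all genes), with BMP5 2 and 0 (16.5% and 9.87%) and with BMP7 2 and 0 (19.2% and 13.2%). With 5 genes, these counts describe the genes and support nothing about them as a group. All ligand groups were compared with the same 4 controls.

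**Figure D1:**
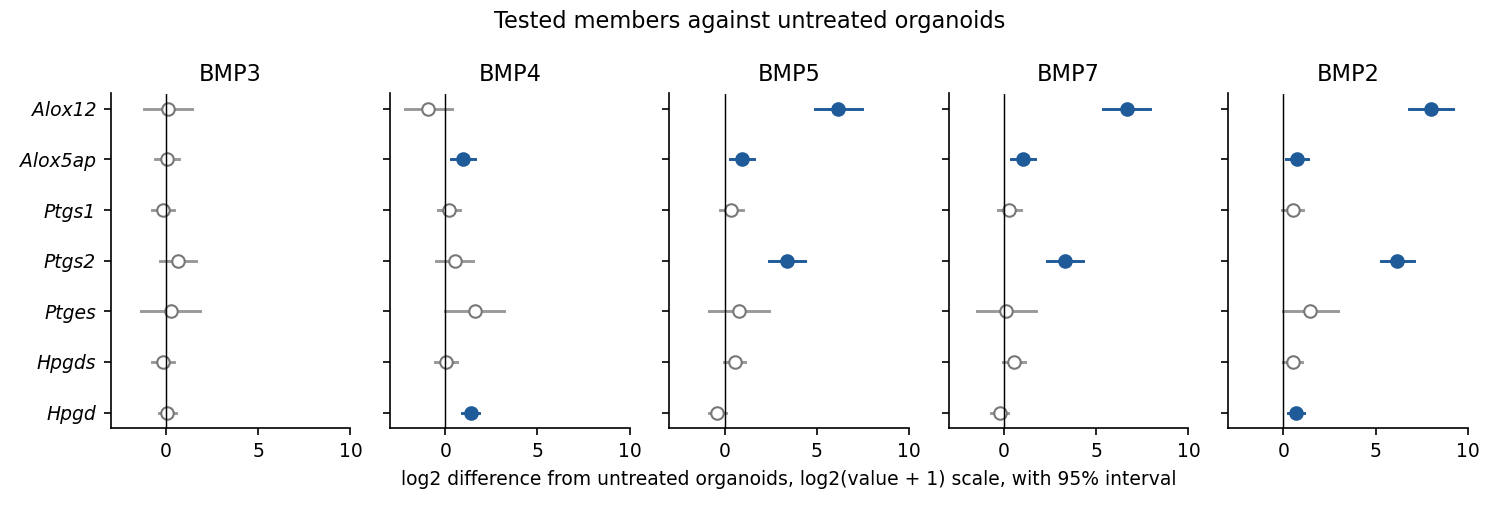
Log2 difference from untreated organoids (horizontal axis, log2(value + 1) scale) for the 7 tested genes under each BMP, as the estimate with its 95% interval. Filled points have an adjusted p under 0.05; Alox12 and Ptgs2 are filled under BMP2, BMP5 and BMP7, Hpgd under BMP2 and BMP4, and Alox5ap under 4 ligands. The Alox12 differences depend on the pseudocount, because its controls hold 0 to 3 reads.

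Alox12 encodes the platelet-type lipoxygenase. Among the controls it measured 0.888 (replicate II), 2.49 (III), 0.887 (IV) and 0 (VI) normalized counts, which is at most 3 reads in any library. With BMP2 it measured 705 (II), 398 (III), 259 (IV) and 743 (VI). Every BMP2 sample lay more than 100-fold above the floor of 3 reads per control library.

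BMP5 gave Alox12 levels of 39.5 (II), 216 (III) and 281 (VI), and BMP7 gave 189 (II), 132 (III) and 267 (VI). BMP3 gave 0.889 (II), 0 (III) and 3.5 (IV), and BMP4 gave 0 in all 3 samples. The 3 groups with high levels overlapped neither the controls nor the BMP3 and BMP4 groups. BMP5 replicate II was the lowest of the high samples, several times under the other BMP5 samples.

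Against the floor of 3 reads per control library, Alox12 under BMP2 averaged at least 204.5-fold higher (limma adjusted p = 2.94e-10). For BMP5 the bound was at least 69.5-fold (1.02e-06), and for BMP7 at least 76.2-fold (2.97e-07). BMP5 replicate II by itself was at least 15.4-fold above that floor. No fold is given for BMP3 or BMP4, where both sides of the comparison averaged under 3 reads. The call held under every alternative for BMP2 (19 of 19), BMP5 (18 of 18) and BMP7 (18 of 18). Alox12 passed the filter only through its treated groups, so these calls describe its values and are no separate support.

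Ptgs2 encodes the inducible cyclooxygenase. Its controls measured 51.5 (II), 24.1 (III), 56.8 (IV) and 19 (VI) normalized counts. BMP2 samples measured 3300 (II), 3750 (III), 2710 (IV) and 1270 (VI). The lowest BMP2 sample, replicate VI, was far above the highest control.

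With BMP5, Ptgs2 measured 294 (II), 564 (III) and 293 (VI), and with BMP7 318 (II), 416 (III) and 312 (VI). The BMP4 samples measured 53.3 (II), 39.9 (III) and 55 (VI), all inside the range of the controls. BMP3 gave 57.8 (II), 23.7 (III) and 116 (IV), of which the last lay above every control. The groups thus fell into 3 levels that did not overlap, with BMP2 highest, BMP5 and BMP7 between, and BMP3, BMP4 and controls lowest.

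Ptgs2 rose 72.7-fold with BMP2 (log2 difference 6.18, SE 0.433, adjusted p = 2.42e-10), 10.4-fold with BMP5 (3.38, SE 0.468, 3.23e-05) and 9.87-fold with BMP7 (3.30, SE 0.468, 2.85e-05). With BMP4 the log2 difference was 0.51 (95% interval -0.48 to 1.49) and its adjusted p was 0.357. With BMP3 it was 0.66 (-0.33 to 1.64) and the adjusted p was 1.

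Hpgd encodes the dehydrogenase that inactivates prostaglandin E2, and its pattern differed from that of the first 2 genes. Controls measured 487 (II), 370 (III), 543 (IV) and 506 (VI) normalized counts. BMP4 samples measured 1330 (II), 1050 (III) and 1340 (VI), all above every control. BMP2 samples measured 489 (II), 747 (III), 1020 (IV) and 929 (VI), of which replicate II lay inside the control range.

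With BMP5, Hpgd measured 405 (II), 282 (III) and 391 (VI), with BMP7 439 (II), 344 (III) and 425 (VI), and with BMP3 535 (II), 391 (III) and 587 (IV). In each of these groups, as in the controls and with BMP4, replicate III was the lowest. Hpgd rose 2.61-fold with BMP4 (log2 difference 1.38, SE 0.217, adjusted p = 1.86e-05) and 1.62-fold with BMP2 (0.70, SE 0.201, 0.00416). For BMP5 the log2 difference was -0.41 (95% interval -0.87 to 0.05) with an adjusted p of 0.181, and for BMP7 -0.24 (-0.69 to 0.22) with 0.425. Under scaling to the same total the BMP2 difference was 0.24 with an adjusted p of 0.27 (0.000137 to 0.27 over its 19 alternatives), and that scaling moves the median of all genes from -0.03 to -0.48.

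**Figure D2:**
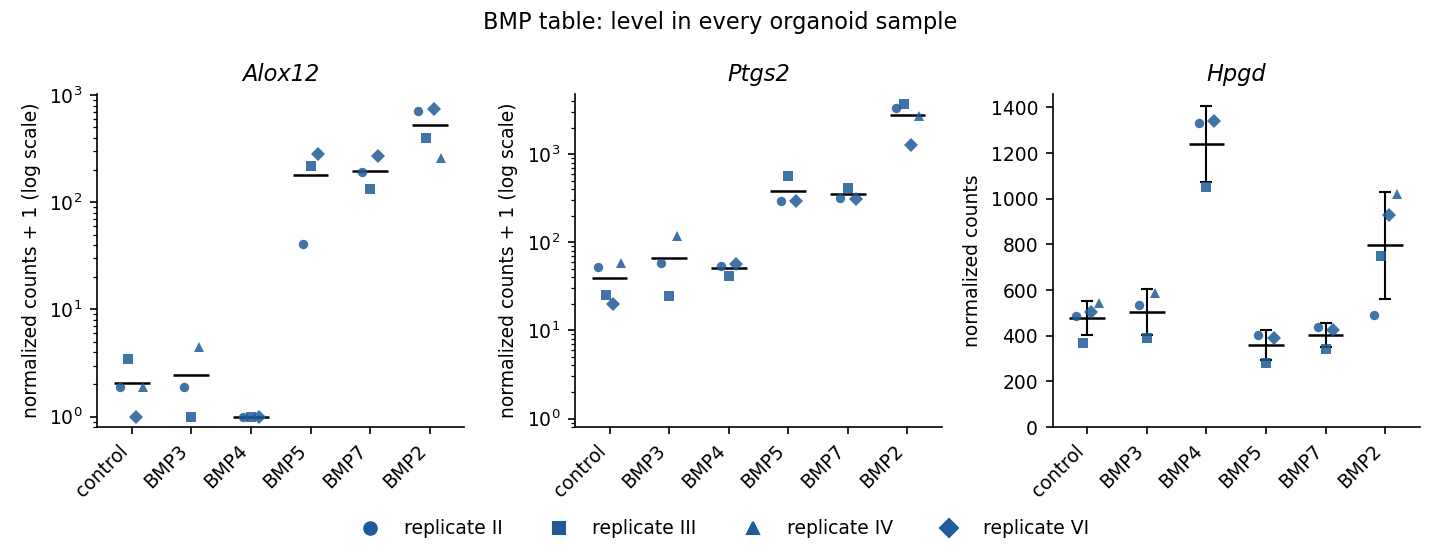
Normalized counts of Alox12 and Ptgs2 (value + 1, log scale) and of Hpgd (linear scale from 0) in every sample of the BMP table, by treatment. Marks are samples by replicate number, horizontal lines are group means and, for Hpgd, bars are ± 1 SD. Alox12 and Ptgs2 are high under BMP2, BMP5 and BMP7, and Hpgd is highest under BMP4.

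The ligands were then compared with each other. The counts between ligands cover all 7 tested genes, with Alox12 and Ptges, which passed the filter only through treated groups. They therefore support nothing about the genes as a group. Between BMP2 and BMP4, 2 of the 7 were higher with BMP2, Alox12 among them, and 1 was lower, where 66.8% of all genes were called. Alox12 was at least 149-fold higher with BMP2 than the floor of the BMP4 libraries (adjusted p = 3.73e-10), Ptgs2 was 51.2-fold higher (log2 difference 5.68, SE 0.468, 4.27e-09), and Hpgd was 1.61-fold lower (-0.68, SE 0.217, 0.00976). Alox12 and Ptgs2 thus stood higher under BMP2, and Hpgd stood higher under BMP4.

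Between BMP2 and BMP7, 2 of 7 genes were called, where 62.8% of all genes were. Ptgs2 was 7.37-fold higher with BMP2 (log2 difference 2.88, SE 0.468, adjusted p = 3.16e-05) and Hpgd 1.91-fold higher (0.94, SE 0.217, 0.00105). For Alox12 the log2 difference was 1.35 (95% interval 0.06 to 2.64) and the adjusted p 0.063, which fell under the threshold in 5 of 18 alternatives (0.0095 to 0.278). The highest BMP7 sample of Alox12, at 267, lay just above the lowest BMP2 sample, at 259.

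Between BMP4 and BMP7, 3 of 7 genes were called, Alox12 among them, where 59.8% of all genes were. Alox12 was at least 55.6-fold higher with BMP7 than the BMP4 floor (adjusted p = 2.2e-08), Ptgs2 6.94-fold higher (9.59e-05), and Hpgd 3.07-fold higher with BMP4 (8.51e-06). BMP5 and BMP7 were not told apart: 0 of 7 genes were called by limma, by edgeR or by DESeq2, and 0 had an unadjusted p under 0.05, where 0.0136% of all genes were called. The log2 difference of BMP5 from BMP7 was -0.48 (95% interval -1.86 to 0.89) for Alox12, 0.08 (-0.97 to 1.13) for Ptgs2 and -0.17 (-0.66 to 0.31) for Hpgd, so that differences of several fold in Alox12 remain possible.

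BMP3 left the 7 tested genes without a call by limma, edgeR or DESeq2, and 0 of them had an unadjusted p under 0.05. Over all 14746 genes limma called 0.0% (0 genes, with 110 at an unadjusted p under 0.05), edgeR on recovered reads called 0 and DESeq2 called 1. The log2 difference was 0.08 (95% interval -0.38 to 0.53) for Hpgd, 0.08 (-0.58 to 0.73) for Alox5ap and -0.15 (-0.77 to 0.46) for Ptgs1.

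Alox5ap encodes the membrane protein that presents arachidonic acid to the leukotriene-forming lipoxygenase. It was low throughout, with controls at 16.9 (II), 14.1 (III), 10.6 (IV) and 15.7 (VI) normalized counts. BMP4 samples measured 39.1 (II), 24 (III) and 23.9 (VI), BMP5 samples 26 (II), 33.3 (III) and 24.6 (VI), and BMP7 samples 31.8 (II), 27.3 (III) and 29.8 (VI). These 3 groups lay wholly above the controls, while BMP2, at 26.1 (II), 24.3 (III), 15.3 (IV) and 35.4 (VI), overlapped them through replicate IV.

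Alox5ap rose 1.67-fold with BMP2 (log2 difference 0.74, SE 0.289, adjusted p = 0.0275), 1.93-fold with BMP4 (0.95, SE 0.313, 0.0123), 1.90-fold with BMP5 (0.93, 0.0354) and 2.02-fold with BMP7 (1.02, 0.0183). These calls were fragile. The one for BMP2 was lost in 6 of 18 alternatives, among them scaling to the same total (0.30, adjusted p = 0.323, range 0.00502 to 0.323) and leaving out BMP2 replicate II or VI or control IV; that for BMP4 was lost under the same scaling (0.57, 0.0994) and without BMP4 replicate II (0.0816). For BMP5 it was lost in 8 of 17 alternatives, without any single BMP5 sample and without control III, IV or VI among them (0.0201 to 0.146), and for BMP7 in 3 of 17, without BMP7 replicate II or VI or control IV (0.00921 to 0.065).

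Ptgs1 encodes the constitutive cyclooxygenase, and it stayed between 16.9 and 44.5 normalized counts in all 20 samples. Its controls measured 26.6 (II), 27.4 (III), 17.7 (IV) and 19 (VI), and its BMP2 samples 37.5 (II), 34.5 (III), 32.9 (IV) and 24 (VI). The largest log2 difference from the controls was 0.50 with BMP2 (95% interval -0.07 to 1.06, adjusted p = 0.104). Unlike Ptgs2, it overlapped its controls in every treated group.

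Hpgds encodes the prostaglandin D2 synthase of immune and tuft cells. Controls lay between 31 and 44.4 normalized counts, and the treated samples between 22.7 (BMP4 replicate VI) and 72.9 (BMP2 replicate III). Only the BMP5 group, at 56.5 (II), 53.7 (III) and 49.3 (VI), did not overlap the controls, and its log2 difference of 0.54 (95% interval -0.05 to 1.12) had an adjusted p of 0.174. For BMP2 it was 0.50 (adjusted p = 0.0872), for BMP7 0.55 (0.14) and for BMP4 0.05 (0.893).

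Ptges encodes the inducible prostaglandin E2 synthase that is often paired with Ptgs2. Controls measured 12.4 (II), 14.9 (III), 3.55 (IV) and 3.3 (VI) normalized counts, BMP2 samples 42 (II), 25.6 (III), 8.23 (IV) and 21.5 (VI), and BMP4 samples 30.8 (II), 37.6 (III) and 10.8 (VI). Replicate III was above replicate VI in the controls and in all 4 ligand groups that hold both numbers. Against the controls the log2 difference was 1.46 with BMP2 (SE 0.707, adjusted p = 0.0697) and 1.60 with BMP4 (SE 0.763, 0.0741), neither under the threshold. With the replicate number as a block, the BMP4 difference was 1.19 with an adjusted p of 0.017 (0.017 to 0.224 over 17 alternatives). The BMP2 difference with the block was 1.46 (SE 0.372, limma adjusted p = 0.00193, and 0.00193 to 0.195 over 18 alternatives). Between BMP4 and BMP7 the log2 difference was 1.47 (adjusted p = 0.00654 with the block and 0.13 without). Between BMP2 and BMP7 it was 1.74 with the block (adjusted p = 0.00139) and 1.33 without (0.138). Replicate numbers did not pair BMP2 with the controls or with BMP7, so the block has no basis in those 2 comparisons. Ptges passed the filter only through treated groups, so its adjusted p-values are no support beyond the values.

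Alox5, the leukotriene-forming lipoxygenase itself, and Ltc4s, which joins leukotriene A4 to glutathione, lay under the filter. Alox5 measured 7.1 (II), 9.96 (III), 7.1 (IV) and 9.91 (VI) normalized counts in controls and 1.14 (II), 0 (III), 0 (IV) and 3.8 (VI) with BMP2. BMP4 gave 2.37 (II), 1.14 (III) and 0 (VI), BMP3 7 to 9.29, BMP5 7.41 to 20.1, and BMP7 6.35 to 6.74. No BMP2 or BMP4 sample exceeded 3 reads, and the mean of the controls was at least 2.34-fold higher than the BMP2 floor and at least 2.42-fold higher than the BMP4 floor. When no filter was applied, the adjusted p of limma was 0.000368 for BMP2 and 0.00164 for BMP4, so that Alox5 fell in the 2 groups in which Hpgd rose.

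Ltc4s measured 5.33 (II), 4.98 (III), 8.87 (IV) and 17.3 (VI) in controls, 4.54 (II), 1.28 (III), 3.53 (IV) and 7.59 (VI) with BMP2, and 16.6 (II), 16 (III) and 21.5 (VI) with BMP4. The BMP2 and BMP4 samples did not overlap, and the unfiltered log2 difference between them was -2.0 (adjusted p = 0.00214), while neither was called against the controls (-0.95, 0.0989 and 1.05, 0.106). Its counts are uncertain, because the gene overlaps Gm26542 on the opposite strand, which held 0 to 39.4 normalized counts, and the strand setting of the counting is not given in the sources used here.

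**Figure D3:**
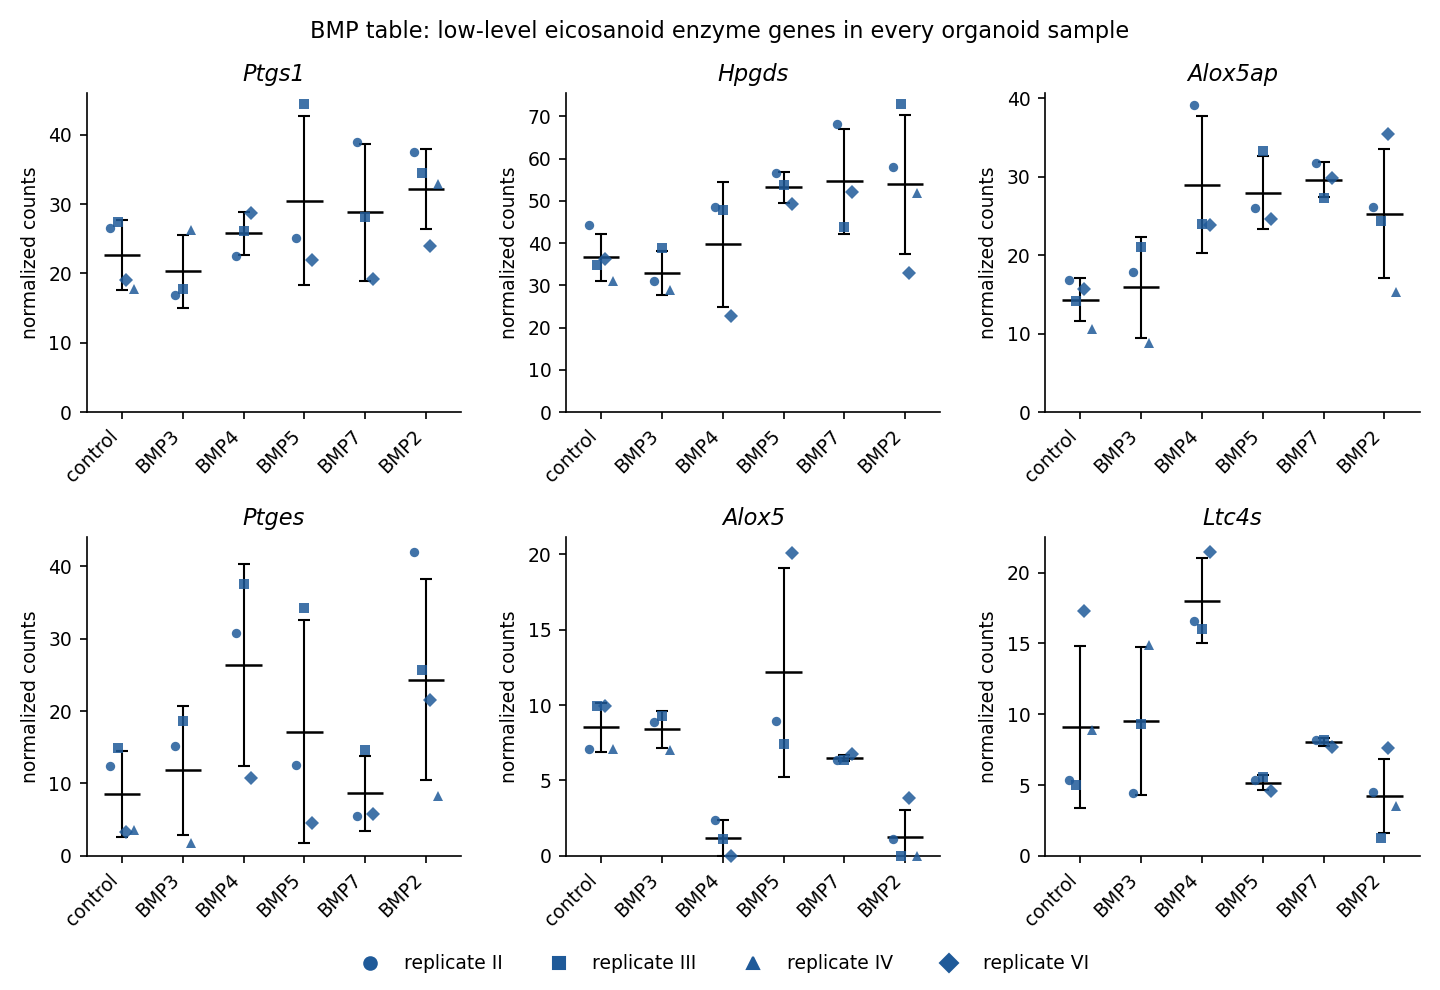
Normalized counts (linear axes from 0) of the 6 genes with low levels in every sample of the BMP table, by treatment. Marks are samples by replicate number, lines are means and bars ± 1 SD; Alox5 lies at or near 0 under BMP2 and BMP4, and Alox5ap lies above the controls under BMP4, BMP5 and BMP7.

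In the Tgfb table, genes with a mean of at least 1 TPM were tested, which left 12959 genes and 5 of the 9. Alox12 and Hpgds, with control means under 1 TPM, passed only through the Tgfb samples and are described by their values. Of the other 3, 0 rose and Hpgd fell, where 27.4% of all genes tested rose and 29.3% fell. Alox12 went from 0 (I), 0 (II) and 0.0176 (III) TPM in controls to 28.1 (I), 28.8 (II) and 25.9 (III) with Tgfb. After treatment it was the most abundant of the 9 transcripts, where it had been the least abundant before. Its log2 difference was 4.83 (SE 0.0900, adjusted p = 1.71e-06), a value that the pseudocount of 1 TPM limits. As Alox12 entered the test through the Tgfb samples, this adjusted p is no support beyond the values.

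Hpgd measured 17.2 (I), 20.2 (II) and 18.9 (III) TPM in controls and 11.9 (I), 13.5 (II) and 16.5 (III) with Tgfb, without overlap. It fell by 0.40 on the log2 scale (SE 0.128, adjusted p = 0.0344), and the call was lost in 6 of 13 alternatives (0.012 to 0.116), namely without a filter on low values, without any single control, and without Tgfb I or II. Hpgds measured 0.898 (I), 0.386 (II) and 0.433 (III) in controls and 1.44 (I), 1.83 (II) and 1.31 (III) with Tgfb. Hpgds rose by 0.69 on the log2 scale (SE 0.214, adjusted p = 0.0318), a call lost in 4 of 12 alternatives (0.0102 to 0.0626), including those without control II or III. Since it passed the filter only through the Tgfb samples, this call is no support beyond the values.

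Ptgs2 did not reach the filter. It measured 0.0366 (I), 0.0646 (II) and 0.138 (III) TPM in controls and 1.49 (I), 2.43 (II) and 1.36 (III) with Tgfb. The groups did not overlap, and the ratio of their means was 22.0. When no filter was applied the log2 difference was 1.33 (SE 0.163, adjusted p = 0.00213). Alox5ap went from 0.768 to 2.48 TPM in controls to 1.90 to 6.66 with Tgfb (log2 difference 0.83, adjusted p = 0.138), and Ltc4s from 0.681 to 1.94 to 0.628 to 0.696 (-0.51, 0.141). Ptgs1 (0.11, 0.436), Ptges (0.13, 0.262) and Alox5 (0.00, 0.991) were not called without the filter. The BMP and Tgfb tables were scaled separately and have their own controls, so no difference between Tgfb and a BMP was tested.

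The mesenchymal cells held a different set of the 9 transcripts, as the values of 1 sample each show. Ptgs1 stood at 189 TPM in fresh and 168 TPM in immortalised, sorted cells, Ptgs2 at 33.4 and 166, and Ptges at 17.8 and 12.7. The other 6 genes were listed at 0 in the immortalised sample, and in the fresh sample they lay between 0.0828 (Hpgds) and 0.896 TPM (Alox5ap). Both cyclooxygenases and the prostaglandin E2 synthase were thus the abundant ones in these samples, while Hpgd, at 18.7 TPM in untreated organoids, measured 0.149 TPM in fresh mesenchymal cells. These are separately normalised tables without replicates on the mesenchymal side, so the values stand side by side with no test. The 8 mesenchymal markers summed to 17556 TPM in fresh cells, 5536 TPM in immortalised cells and 5.13 to 9.50 TPM in the 6 organoid samples.

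**Figure D4:**
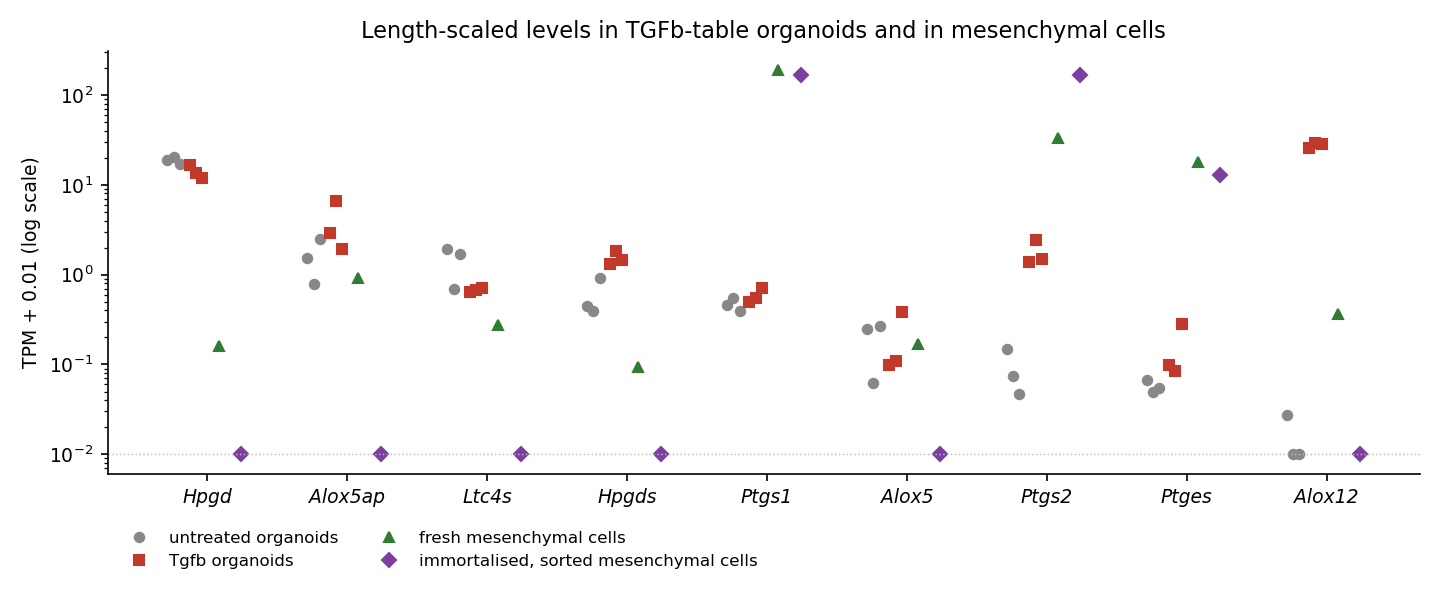
TPM + 0.01 (log scale) of the 9 genes in the 3 untreated and 3 Tgfb-treated organoid samples and in the 2 mesenchymal samples, 1 mark per sample, with the dotted line at 0 TPM. Tgfb raises Alox12 from the bottom to the top of the organoid range, and Ptgs1, Ptgs2 and Ptges are high in the mesenchymal samples.

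The genes most like each abundant member were found by Pearson's r of log2(value + 1) over the 20 BMP-table samples among 11855 genes, as a description. Il34 (0.987), Tgfb1 (0.984) and Nfe2l3 (0.983) had the patterns most like Alox12. Maml2 (0.984), Basp1 (0.984) and Rdh10 (0.982) were most like Ptgs2, and Edem3 (0.951), Arfgef2 (0.940) and Gata4 (0.935) were most like Hpgd. The 20 points share their treatments, replicate numbers and scaling, so high values are common among genes that moved with treatment.

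Other genes of the pathway were read from a list of 52 in 8 roles, of which 48 are in the BMP table and 30 passed its filter. With BMP2, 8 of the 30 rose and 16 fell (36.8% and 38.4% of all genes tested), with a median log2 difference of -0.51 beside -0.03 over all genes. With BMP4, 22 rose and 7 fell (33.7% and 31.4% of all genes), with a median of 1.26 beside 0.04. Scaling to the same total gave 5 up and 19 down for BMP2 and 18 up and 8 down for BMP4. That scaling also shifted all 14746 genes, to 3627 up and 7783 down for BMP2 and 3100 up and 6864 down for BMP4. Directly compared, 5 of the 30 were higher and 22 lower with BMP2 than with BMP4 (33.4% of all genes in each direction), with a median of -1.24 beside 0.01 over all genes.

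Among genes listed by name as phospholipases A2, 2 of 10 rose and 6 fell with BMP2, and 5 rose and 4 fell with BMP4. Whether each of their products releases arachidonic acid was not tested. Since 75.1% of all genes were called with BMP2 and 65.1% with BMP4, a high count of calls in a role with few genes is no result about that role. The cytosolic enzyme Pla2g4a fell from 1982 ± 100 to 101 ± 27.1 normalized counts with BMP4 (log2 difference -4.33, SE 0.141, adjusted p = 2.32e-13, n = 4 and 3) and to 832 ± 25.5 with BMP2 (-1.25, 6.09e-08). The secreted Pla2g2a fell from 337 ± 79.8 to 5.88 ± 5.98 with BMP2 (-5.92, 6.68e-09) and to 65.8 ± 48.9 with BMP4 (-2.75, 0.000315). Pla2g5, also secreted, fell with BMP2 from 628 ± 99.9 to 45.6 ± 16.5 (-3.80, 1.71e-09) and with BMP4 to 297 ± 126 (-1.17, 0.0044). Pla2g12b rose from 208 ± 29.9 to 536 ± 126 with BMP2 (1.34, 2.85e-06) and to 1026 ± 38.2 with BMP4 (2.31, 1.61e-08).

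Of the 4 tested prostanoid synthases 4 fell with BMP2, while with BMP4 3 rose and 1 fell. Over all genes 36.8% rose and 38.4% fell with BMP2, and 33.7% rose and 31.4% fell with BMP4. The 5 tested genes listed as leukotriene enzymes (Lta4h, Mgst2, Mgst3, Ggt1 and Dpep1) rose with BMP4, and with BMP2 1 rose and 4 fell. Alox5 and Ltc4s are not among these 5, and Alox5 held at most 2 reads with BMP4. Dpep1, a dipeptidase that turns leukotriene D4 into E4, reached 2217 ± 287 with BMP4 from 382 ± 177 (log2 difference 2.65, adjusted p = 7.46e-05). All 4 tested genes of eicosanoid degradation rose with BMP4, whereas with BMP2 1 rose and 2 fell. The epoxide hydrolase Ephx1 fell with BMP2 from 1610 ± 328 to 84.2 ± 34.6 (-4.30, 5.78e-12).

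Of 9 prostanoid receptors only Ptger4, a prostaglandin E2 receptor, passed the filter. It rose with BMP2 from 544 ± 42.9 to 1628 ± 459 normalized counts (log2 difference 1.54, adjusted p = 5.44e-08), with BMP5 to 1165 ± 178 (1.09, 0.000119), with BMP7 to 1257 ± 125 (1.21, 3.02e-05) and with BMP4 to 793 ± 121 (0.54, 0.0105), in each case without overlap with the controls. The leukotriene B4 receptor gene Ltb4r2 rose with BMP4 from 59.7 ± 29.9 to 336 ± 124 (2.56, 0.000354). Among 3 transporters, Slco2a1, which takes up prostaglandins, rose from 126 ± 24.7 to 747 ± 151 with BMP4 (2.55, 5.2e-09) and to 298 ± 55.6 with BMP2 (1.23, 8.91e-06), and the exporter Abcc4 fell with BMP4 from 612 ± 101 to 93.6 ± 12.4 (-2.69, 3.34e-10).

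**Figure D5:**
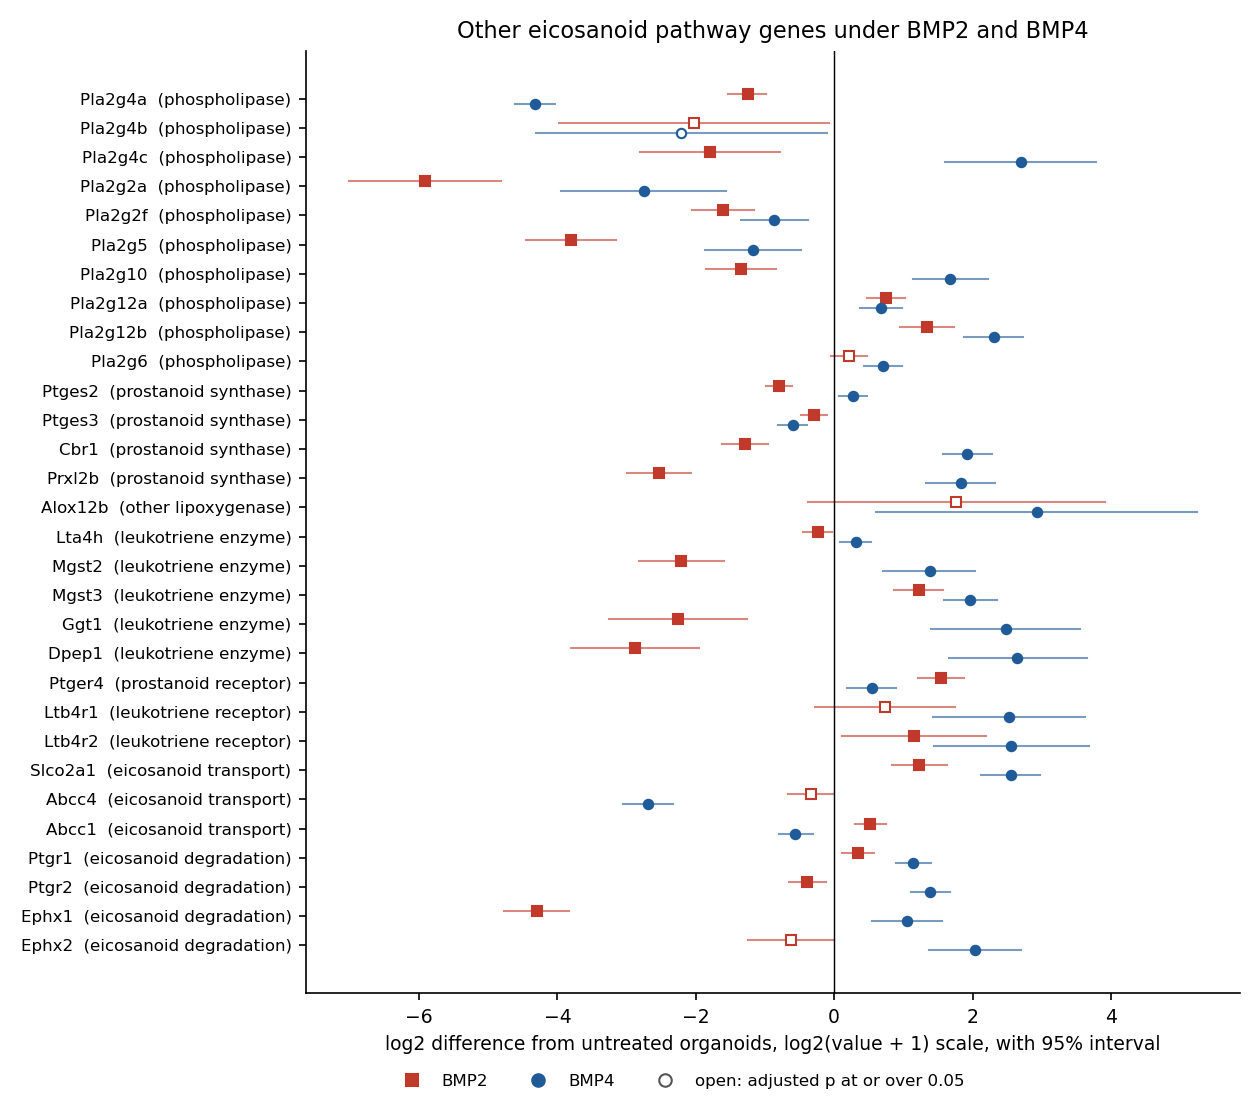
Log2 difference from untreated organoids (horizontal axis, log2(value + 1) scale) with its 95% interval for the 30 tested pathway genes outside the 9, by role, under BMP2 (squares) and BMP4 (circles). Filled marks have an adjusted p under 0.05; 22 genes rose with BMP4 and 8 with BMP2.

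BMP5 raised 3 and lowered 5 of the 30 pathway genes (16.5% and 9.87% of all genes), and BMP7 raised 3 and lowered 8 (19.2% and 13.2%). With the replicate number as a block these counts became 5 and 10, and 4 and 14. The block also called more of all 14746 genes, with 3145 up and 2593 down for BMP5 (2429 and 1455 without it). For BMP7 these were 3541 and 3148 (2833 and 1940 without it). Without BMP5 replicate III the pathway counts for BMP5 were 2 and 2, and without BMP7 replicate II those for BMP7 were 3 and 4. No share over all genes is given for these last fits. The phospholipase Pla2g12a rose with both, from 533 ± 44.1 to 949 ± 48.1 with BMP5 (log2 difference 0.83, adjusted p = 0.000304) and to 1217 ± 261 with BMP7 (1.17, 6.75e-06). Ephx1 fell to 643 ± 54.5 (-1.30, 0.000584) and 635 ± 102 (-1.33, 0.000373), and Prxl2b, a prostamide and prostaglandin F synthase, from 352 ± 31.4 to 184 ± 52.0 (-0.96, 0.00573) and 179 ± 13.9 (-0.97, 0.00426). The exporter Abcc1 rose with BMP5 (0.41, 0.0154) and BMP7 (0.47, 0.00504), and the carbonyl reductase Cbr1 fell with BMP5 (-0.64, 0.00902). Both BMP5 calls were lost without BMP5 replicate III (adjusted p of 0.108 and 0.081), and the fall of Mgst2 with BMP7 (-0.93, 0.0306) was lost in 4 of 18 alternatives, each leaving out 1 library (BMP7 replicate II or III, control IV or VI; up to 0.18). BMP3 changed 0 of the 30 by limma, edgeR or DESeq2.

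With Tgfb, 6 of 26 tested pathway genes rose and 14 fell (27.4% and 29.3% of all genes), with a median log2 difference of -0.37 beside -0.04 over all genes. Ptger4 rose from 6.76 ± 0.133 to 29.6 ± 2.18 TPM (log2 difference 1.98, adjusted p = 8.55e-06), Pla2g12a from 21.3 ± 2.57 to 58.3 ± 3.89 (1.42, 7.65e-05) and Pla2g12b from 13.1 ± 2.12 to 22.6 ± 3.94 (0.75, 0.00837), with n = 3 in each group. Ephx1 fell from 90.3 ± 8.26 to 12.2 ± 3.19 (-2.81, 6.27e-05), Dpep1 from 22.6 ± 3.35 to 5.90 ± 1.10 (-1.77, 0.000161) and Pla2g2a from 36.0 ± 2.33 to 10.2 ± 1.33 (-1.73, 4.03e-05). All 3 transporters rose, and all 4 prostanoid synthases and all 4 degradation genes tested fell.

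Several of the 9 genes are also markers of other cells, so markers were read beside them. In bulk samples, fewer cells of a type and less RNA per cell cannot be told apart. The 18 tuft markers summed to 560 to 673 normalized counts in controls, 583 to 697 under BMP3, 842 to 928 under BMP5, 921 to 1049 under BMP7, 1157 to 1326 under BMP4 and 1853 to 2676 under BMP2. Of 13 tested tuft markers, 10 rose with BMP2 (36.8% of all genes rose), 8 rose and 1 fell with BMP4 (33.7% and 31.4%), and 3 rose with BMP5 (16.5%) and 3 with BMP7 (19.2%), the last 2 counts being near the share over all genes. Avil accounted for most of the BMP2 rise (132 ± 24.7 to 1250 ± 395). In the Tgfb table the sum was 14.4 to 17.9 TPM in controls and 22.5 to 24.6 with Tgfb, where 3 of 9 tested markers rose (27.4% of all genes rose). The part of tuft cells in the values of Alox5ap, Hpgds and Ptgs1 was not tested.

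Platelets also carry Alox12. The 6 platelet markers summed to 177 to 262 normalized counts in controls and 179 to 218 with BMP2. Most of the BMP2 sum was Gp1bb (149 ± 18.4), and of 2 tested platelet markers Itga2b rose and Gp1bb fell with BMP2. Ppbp, under the filter, averaged 24.5 ± 7.10 in the BMP2 samples against 0.428 ± 0.495 in the controls. Its BMP5 mean was 8.22 ± 5.71, its BMP7 mean 10.0 ± 5.70 and its BMP4 mean 0.397 ± 0.687, while Pf4 and Gp9 were at 0 in all 4 BMP2 samples. In the Tgfb table the sum was 5.81 to 9.45 TPM in controls and 4.10 to 7.53 with Tgfb. The part of platelets in the Alox12 values was not tested.

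Of 10 leukocyte markers 4 were tested, of which 2 rose and 2 fell with BMP2 (36.8% and 38.4% of all genes). The sum of the 10 went from 245 to 303 in controls to 836 to 1297 with BMP2, mostly through Cd14 (182 ± 24.3 to 922 ± 201). Ptprc, which all leukocytes carry, measured 6.71 ± 3.04 in controls and 14.0 ± 7.30 with BMP2. With Tgfb the median leukocyte sum went from 6.56 TPM in controls to 15.0, without overlap, and Cd14 rose (3.78 ± 0.243 to 13.3 ± 0.493). Among 8 mast cell markers only the proteases Mcpt1 and Mcpt2 were tested. Both rose with BMP2, BMP5 and BMP7, and Mcpt2 measured 38.6 ± 37.9 in controls and 382 ± 244 with BMP2. Cpa3, a mast cell protease, was at 0 in every control and BMP5 sample and reached at most 1.28 with BMP2 and 0.907 with BMP7. Fcer1a was looked up and is not listed in the BMP table, so it has no value in these samples. The summed mast cell markers ranged from 9.13 to 98.3 in controls, 58.0 to 288 under BMP4, 125 to 794 under BMP5, 191 to 794 under BMP7 and 208 to 759 under BMP2. In the Tgfb table, where Alox12 rose, that sum went from 0.118 to 0.476 TPM in controls to 27.9 to 54.9 with Tgfb, nearly all of it Mcpt2, which rose (log2 difference 5.05, adjusted p = 2.22e-05), with Cpa3, Fcer1a, Ms4a2 and Tpsb2 at 0 in all 6 samples. The part of leukocytes and mast cells in the values of the 9 genes was not tested.

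The 10 markers of stratified epithelium had a sum of 87.9 to 181 normalized counts in controls, 95.5 to 177 under BMP3, 171 to 409 under BMP4, 245 to 702 under BMP5, 462 to 752 under BMP7 and 2097 to 4656 under BMP2. Of 7 tested, 5 rose and 1 fell with BMP2 (36.8% and 38.4% of all genes), and 4 rose and 1 fell with BMP4 (33.7% and 31.4%). With BMP5 4 rose (16.5% of all genes rose), and with BMP7 4 rose (19.2%). Most of the BMP2 sum was Krt14 (2195 ± 1051, from 2.57 ± 1.00 in controls), which also rose with BMP4 (56.4 ± 71.6), where Alox12 was at 0 and Ptgs2 was not called. With Tgfb the sum went from 6.59 to 8.86 TPM in controls to 22.1 to 33.6, and 1 of 3 tested markers, Krt14, rose (27.4% of all genes rose). The part of these markers' changes in Alox12 and Ptgs2 was not tested. Markers of mesenchyme summed to 134 to 220 in controls and 70.4 to 93.0 with BMP2, mostly through Vim (149 ± 28.5 to 34.5 ± 3.27), which was the 1 tested marker and fell. Pdgfra measured 0.667 ± 0.852 in controls and 22.9 ± 10.4 with BMP2. Dcn and Lum were looked up and are not listed in the BMP table, so they have no value in these samples. The 10 markers of intestinal epithelium, the labelled cell type, were present in every organoid group. They summed to 131880 to 144000 in controls, 247072 to 293170 with BMP2 and 295578 to 369923 with BMP4. Of the 10, 5 rose and 5 fell with BMP2 (36.8% and 38.4% of all genes), and 6 rose and 1 fell with BMP4 (33.7% and 31.4%).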

How the data were processed

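Messenger RNA of 28 mouse samples was quantified by the authors, and per the submitters' processing notes Trim Galore, Salmon, DESeq2 and build GRCm39 were used; versions, annotation and strand setting are not given in the sources used here. In the BMP table the deposited values are a signal (reads scaled by a single factor for each library and kept to 3 significant digits), as read from the values. All of 180721 values at or below 20 reads (100.0%) were whole multiples of 1 read within 0.1 reads, which gave 21358620 to 24784834 recovered reads per sample; the 21.0% of values above 999 reads are known to 3 digits only. The other 2 tables were deposited by the authors as TPM (each column sums to 1000000), so their depth is unknown.

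Groups came from the titles, and 0 columns were left unmapped. Tests used limma 3.58.1 (R 4.3.3) with an intensity trend on log2(value + 1), two-sided, with Benjamini-Hochberg adjustment over all genes tested; log2 differences understate the change of low genes. The 6 groups of the BMP table were fitted together, and every adjusted p in the text is from limma unless another tool is named. As alternatives, edgeR 4.0.16 and DESeq2 1.42.0 were run on recovered reads, where for BMP2 they called 4 and 6 of the 7 tested genes. The design foresaw edgeR only for raw counts. Over all 14746 genes edgeR called 11106 and DESeq2 11172 for BMP2 against controls, beside 11077 with limma. The 7 tested genes include Alox12 and Ptges, which passed the filter only through treated groups. Others were pseudocounts of 0.1 and 5, other filters, TMM, quantile and same-total scaling, the replicate block and leaving out each sample. The fits were tested on simulated data.

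Floors of 3 reads per library cover counting error only. No label says that replicates came from separate cultures or animals, so p-values measure only the spread between these samples. Replicate numbers paired the samples for BMP3, BMP4, BMP5 and BMP7 against controls and for BMP4 and BMP5 against BMP7 (each correlation of same-numbered deviations from group means over 0.1, from 0.15 to 0.553), and not for BMP2 or Tgfb. For BMP2 against controls only replicate III lay under 0.1 (0.018, beside 0.195 for II, 0.421 for IV and 0.308 for VI). For Tgfb the correlations ran from 0.004 to 0.07. The lists (pathway, tuft, leukocyte, mast cell, platelet, stratified epithelium, mesenchyme, intestinal epithelium), the genes and the rules were chosen with earlier results of these data known. Pathway genes named are the 3 with the largest rise and fall per ligand among those called with a mean of at least 50 normalized counts or 5 TPM; at most 3 abundant markers are named per list, and further markers were chosen after their values were seen. Overlapping genes were read from GENCODE M21 (GRCm38) by identifier.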

Additional observations from a re-analysis of the deposited data

How the results depend on the processing

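Of 395 comparisons of a called gene with an alternative, 365 kept the call and its direction and 30 lost the call. Of 390 that start from no call, 20 gained one and 14 changed sign. The 395 include Alox12 and, for Tgfb, Hpgds, which passed the filter only through treated groups. For those genes the kept calls describe the values and are no separate support. Scaling to the same total gave 2 called genes for BMP2 (Alox12 and Ptgs2; 4 of the 7 tested, Alox12 included, in the reported fit) and 1 for BMP4 (2 as reported), and a minimum mean of 50 normalized counts also gave 1 for BMP4, since Alox5ap was then not tested. Leaving out 1 sample gave 1 (without BMP4 replicate II) to 3 called genes for BMP4 and 1 (without control III) to 3 for Tgfb. Changes of sign were all among differences that were not called. Under the same total they were Ptgs1 with BMP4 (-0.19) and Hpgds with BMP4 (-0.34), and under quantile scaling Ptges with BMP7 (-0.12). Leave-one-out values ran from -0.04 to 0.25 for Hpgd with BMP3, -0.13 to 0.40 for Hpgds with BMP4, -0.28 to 0.46 for Ptges with BMP7, -1.01 to 0.39 for Alox12 and -0.23 to 0.24 for Ptgs2 in BMP5 against BMP7. The causes were not tested. Scaling to the same total moved the median of all genes to -0.48 for BMP2, -0.35 for BMP4 and -0.12 for BMP7. It gave 3627 genes up and 7783 down for BMP2 (5420 and 5657 as reported), 3100 and 6864 for BMP4 (4964 and 4633), 2587 and 2725 for BMP7 (2833 and 1940), 2527 and 6948 for BMP2 against BMP7 (4637 and 4625) and 2668 and 6641 for BMP4 against BMP7 (4190 and 4628). For BMP5, quantile scaling gave 2397 and 2413 (2429 and 1455 as reported), and for BMP7 2716 and 2938 (2833 and 1940).

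With the replicate block, Ptges with BMP7 was -0.28, and Ptges gained a call with BMP4 (1.19, limma adjusted p = 0.017) and for BMP4 over BMP7. For BMP2, where replicate III did not pair with its control, the block gave 6 called genes in place of 4 (Hpgds and Ptges added). Over all 14746 genes it called 11858 for BMP2, beside 11077 as reported. The 6 include Alox12 and Ptges, which passed the filter only through treated groups, so this count is no support about the genes. For Tgfb, whose samples share only a number, the block gave 2 in place of 3, where 7613 of 12959 genes were called (7348 as reported). The block changed the call of no other gene in the paired comparisons with the controls. At these depths genes of a few reads, such as Alox5 and Ltc4s, allow only large differences to be seen.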
